A study of Homo sapiens with 12 samples.

Results

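The 38 genes described here encode the RNA polymerase I and RNA polymerase III machinery, meaning the enzymes' own subunits, the factors that bring them to their genes, and the repressor MAF1. They were taken as a list of symbols, with no rule on their values but with earlier results of these data known. All 38 were found among the 60670 genes of the count table. For this account 10 were counted under polymerase I, 26 under polymerase III and 2 as shared by both enzymes, which does not mean that each serves only that enzyme. RNA was sequenced from 12 cultures of MDA-MB-453, an established human breast cancer line that lacks estrogen receptor alpha and responds to androgen. The series concerns the transcription factor AP-2β and the enhancers of mammary hormone-sensing cells, and these libraries ask what androgen changes in such a line. Every culture spent 72 h in DMEM rich in glucose, supplemented with fetal bovine serum at 10%. The 6 vehicle cultures then received 0.001% ethanol for 6 h, and the 6 DHT cultures received 10 nM dihydrotestosterone, the potent natural androgen, for 6 h. The 6 replicates of a group came from successive passages of this 1 line, so the spread between them is that of cultures and not of tumours or donors, and other lines were not analysed here.

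RNA polymerase I transcribes the long precursor of ribosomal RNA in the nucleolus. UBTF and the selectivity factor SL1 mark its promoter, and RRN3 carries the competent enzyme there. RNA polymerase III makes transfer RNAs, 5S ribosomal RNA and other short RNAs. TFIIIC reads the promoter elements inside transfer RNA genes, TFIIIA reads those of 5S genes, the SNAPc complex reads upstream elements of U6-type genes, and all of them lead to TFIIIB, which recruits the enzyme. MAF1 represses polymerase III when nutrients or growth signals fail, and MYC is a known activator of both systems.

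Depth ran from 4345939 counts in vehicle replicate 6 to 25678380 in DHT replicate 2, so that 1 count was worth 0.230 CPM (counts scaled to library size) in the shallowest library. The first principal component (53.6% of the variance) set both replicate 2 libraries apart. The second (16.0%) set vehicle replicate 5 apart, the library with the highest mitochondrial share, 8.07% of counts against 3.03% to 5.66% in the others. This second component also separated the groups, with scores of 8.80 to 19.5 in DHT and -48.4 to 2.50 in vehicle libraries. The line's markers were present in both groups. The summed level of ERBB2, FOXA1, KRT8, KRT18, EPCAM and XBP1 lay between 5359 and 11091 CPM in vehicle and between 3836 and 6948 CPM in DHT libraries, while ESR1 and PGR together stayed at or below 0.876 CPM. FOXA1 was lowered in edgeR (adjusted p = 0.00463) and limma-voom, and FOXA1 and ERBB2 in DESeq2. Leukocyte markers (PTPRC, CD3E and CD68) summed to at most 0.854 CPM and endothelial markers to at most 1.47 CPM, with CD3E at 0 in all libraries. The 5 fibroblast markers, mostly COL1A1, summed to 75.8 to 110.0 CPM in vehicle and 59.7 to 75.7 CPM in DHT libraries. All 3 of them that were tested were lower in DHT at an unadjusted p under 0.05 and none passed after adjustment in edgeR, DESeq2 or limma-voom, and the part of this in the results below was not tested. In a culture, fewer cells of a kind and less RNA per cell cannot be told apart.

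DHT raised 3 of the 38 genes and lowered none. The raised genes were POLR3E and POLR3D, subunits of polymerase III, and POLR1B, the second-largest subunit of polymerase I. A gene is said to have risen, fallen or passed where its adjusted p in edgeR's quasi-likelihood test, with Benjamini-Hochberg adjustment over 16355 genes, was under 0.05. All 38 genes were among those tested. In that test 2.84% of all genes changed, 1.96% raised and 0.88% lowered. At an unadjusted p under 0.05, 8 of the 38 were higher in DHT, against 6.59% of all genes, and 0 were lower, against 5.41%; limma-voom and DESeq2 also lowered 0 of the 38. The log2 fold change of DHT over vehicle (log2FC) lay above 0 for 28 of the 38, against 41.8% of all genes tested, and its median was 0.12, against -0.05 over all genes. The 35 genes that did not pass had log2FC values between -0.27 and 0.64. Without vehicle replicate 5, 6 of the 38 were raised, POLR1E, POLR1C and GTF3A joining the 3, where 2.16% of all genes were raised. DESeq2 raised 5, POLR1E and POLR1C joining the 3, where it raised 3.12% and lowered 1.73% of all genes. Without both replicate 2 libraries 4 were raised, the 3 and POLR1E, and 0 lowered in edgeR, against 3.7% and 1.9% of all genes.

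**Figure D1:**
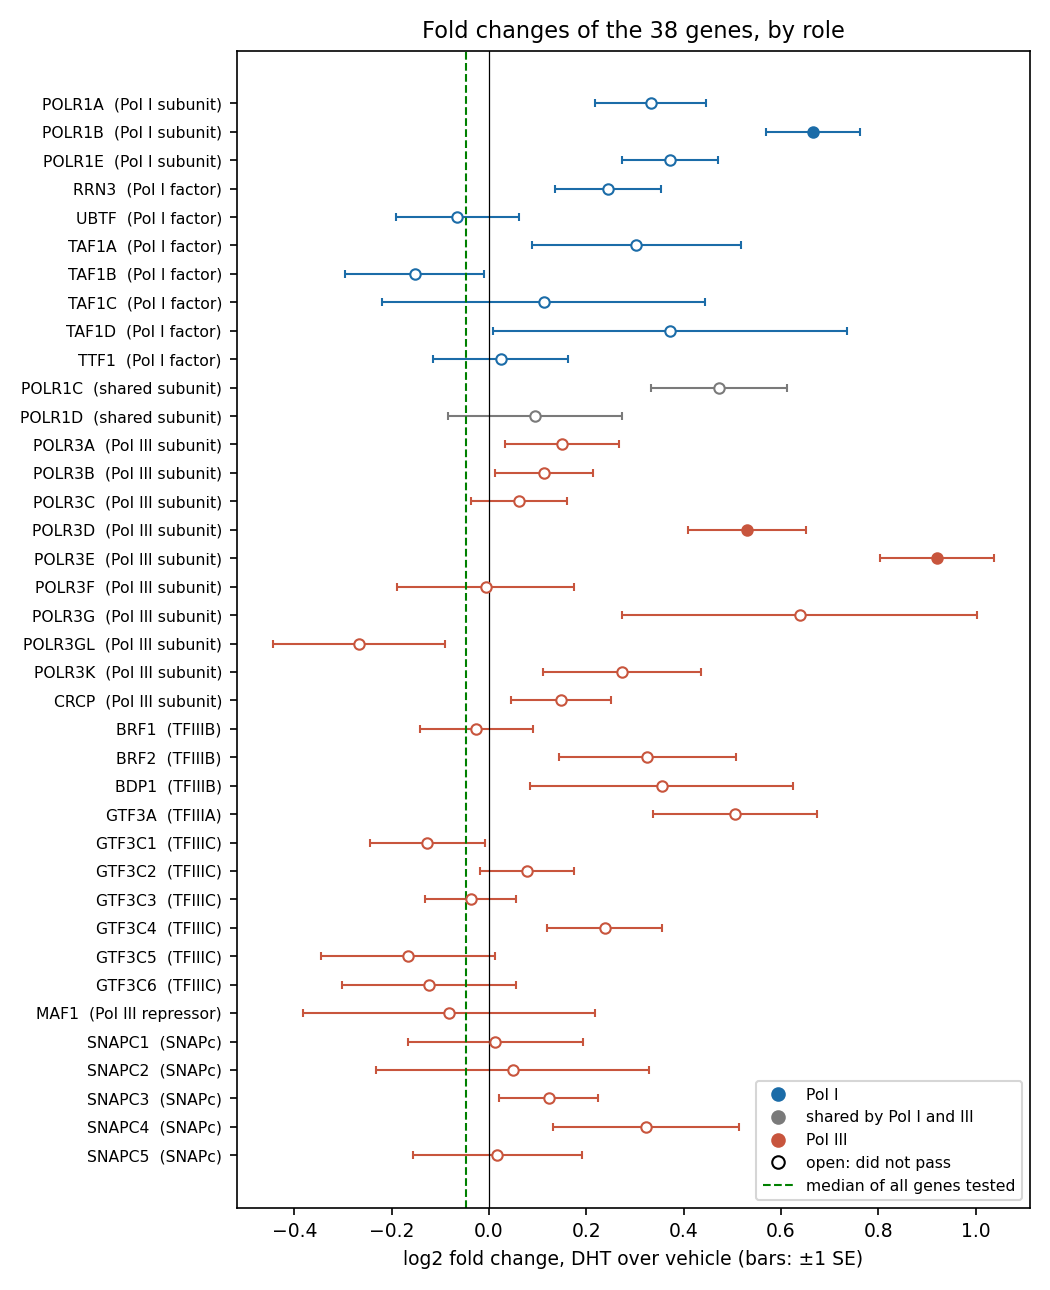
Fitted log2FC (DHT over vehicle) for each of the 38 genes, ordered by role, with bars of 1 standard error (n = 6 libraries per group). Filled points passed (POLR1B, POLR3D, POLR3E), open points did not, and the dashed line is the median over all genes tested, -0.05.

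Polymerase I was described first by its subunits among the 38, all 3 of which lay higher in DHT. Its subunits POLR1F, POLR1G and POLR1H, not among the 38, had log2FC values of 0.21, 0.54 and -0.14 and did not pass. POLR1B (ENSG00000125630, chromosome 2, 112541915 to 112579818 on GRCh38, plus strand) forms much of the active site together with the largest subunit. Its level ran from 47.8 to 62.6 CPM in vehicle libraries (median 49.7) and from 74.8 to 86.6 CPM in DHT libraries (median 83.8). Every DHT library lay above every vehicle library, which held for 2.28% of all genes tested and for 4 of the 38 (POLR1B, POLR1E, POLR3D and POLR3E). The reverse, every DHT library below every vehicle library, held for 0.991% of all genes and 0 of the 38. The mean rose from 51.9 ± 5.65 to 82.3 ± 4.48 CPM (SD, n = 6 each), a log2FC of 0.67 (SE 0.10, adjusted p = 0.00141). POLR1B passed under all 24 alternatives tried, with adjusted p between 4.84e-10 and 0.0135.

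POLR1E, a subunit that helps the enzyme start and elongate, lay between 33.7 and 43.4 CPM in vehicle (median 37.5) and between 44.4 and 54.8 CPM in DHT (median 49.9). The groups did not overlap, with the lowest DHT library just above the highest vehicle library. The log2FC of 0.37 (SE 0.10) missed the threshold at an adjusted p of 0.0648, and passed with DESeq2 (adjusted p = 0.00377), without vehicle replicate 2 (0.0263), without vehicle replicate 5 (0.0329), without both replicate 2 libraries (0.0196) and with library totals as the only scaling (0.0324). POLR1A, the largest subunit, which holds the catalytic cleft, lay between 71.3 and 96.2 CPM in vehicle (median 84.8) and between 91.9 and 120.2 CPM in DHT (median 106). Its ranges overlapped, with vehicle replicates 1 and 4 at or above the lowest DHT libraries, and its log2FC of 0.33 (SE 0.11) did not pass (adjusted p = 0.191).

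The 7 factors that serve polymerase I had a median log2FC of 0.11, and none passed in edgeR, with 1 of them (RRN3) at an unadjusted p under 0.05 and 0 called by DESeq2 or limma-voom. RRN3, which joins the enzyme to its promoter, lay between 86.1 and 119.9 CPM in vehicle (median 110.4) and between 112 and 144 CPM in DHT (median 127). The DHT libraries were shifted upward but the groups overlapped (log2FC 0.24, SE 0.11, adjusted p = 0.377). Counts of its pseudogene copies RRN3P1 (1190 over all libraries) and RRN3P3 (567) make its own count uncertain, since reads of near-identical copies may have been divided. UBTF, the architectural factor of ribosomal gene chromatin, lay between 123 and 191 CPM in vehicle (median 136) and between 124 and 170.4 CPM in DHT (median 133), the highest value in each group being replicate 2. Its groups overlapped (log2FC -0.07, SE 0.13, adjusted p = 0.933).

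The 4 TAF1 genes encode the subunits that SL1 adds to the TATA-binding protein. Their log2FC values were 0.30 for TAF1A (SE 0.21), -0.15 for TAF1B (SE 0.14), 0.11 for TAF1C (SE 0.33) and 0.37 for TAF1D (SE 0.36), and their adjusted p-values ran from 0.715 to 0.960. TAF1D was far lower in replicate 2 than elsewhere. It stood at 46.2 CPM in vehicle replicate 2 and 54.0 CPM in DHT replicate 2, while the other 10 libraries held 147 to 266 CPM. TAF1D is also a host gene of small nucleolar RNAs, and 11.9% of its exon bases lie under other genes of the same strand. TTF1, which ends polymerase I transcription, held 18.1 ± 3.12 CPM in vehicle and 18.4 ± 2.05 CPM in DHT cultures (log2FC 0.02, adjusted p = 0.983).

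**Figure D2:**
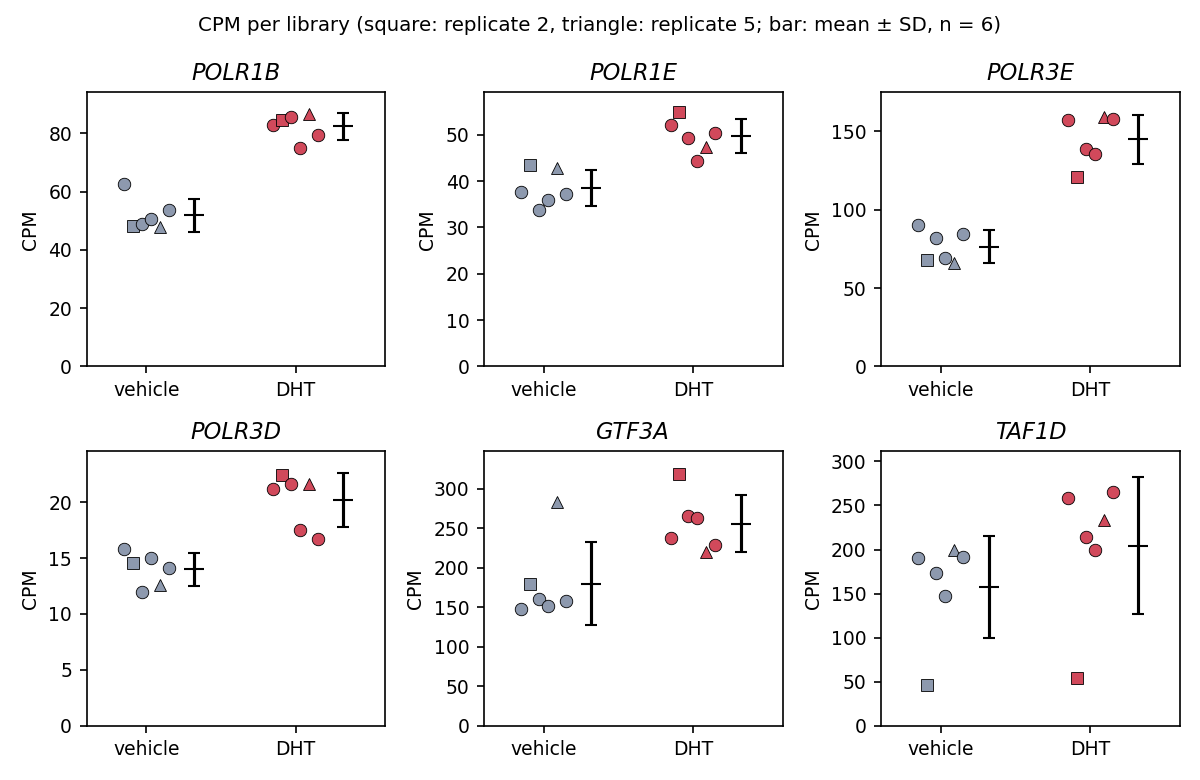
CPM of 6 genes in each of the 12 libraries (points), with the mean and SD of each group (bars, n = 6). POLR1B, POLR1E, POLR3E and POLR3D do not overlap between groups, GTF3A overlaps through vehicle replicate 5 (triangle, 284 CPM), and TAF1D is lowest in both replicate 2 libraries (squares).

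POLR1C and POLR1D form the scaffold on which both enzymes are assembled. POLR1C lay between 22.9 and 41.8 CPM in vehicle (median 33) and between 39.6 and 52.0 CPM in DHT (median 45.5), with a log2FC of 0.47 (SE 0.14, adjusted p = 0.107). The groups overlapped at their edges, and POLR1C passed with DESeq2 (adjusted p = 0.0320) and without vehicle replicate 5 (0.0329). Of its exon bases, 18.3% lie under genes of the other strand, among them XPO5, with a mean of 86.5 ± 12.7 CPM in vehicle and 115 ± 7.5 CPM in DHT (log2FC 0.41, adjusted p = 0.0721). The sources used here do not say whether counting used strand. POLR1D had a log2FC of 0.10 (SE 0.18, adjusted p = 0.931).

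Among the 10 listed subunits specific to polymerase III, POLR3E and POLR3D rose and the other 8 did not pass. POLR3E (ENSG00000058600, chromosome 16, 22297375 to 22335101 on GRCh38, plus strand) encodes a subunit of the pair that acts in initiation and termination. It lay between 65.8 and 90.2 CPM in vehicle (median 75.5) and between 121 and 159 CPM in DHT (median 148), so the groups were far apart. The mean rose from 76.5 ± 10.3 to 145 ± 15.7 CPM (SD, n = 6 each), a log2FC of 0.92 (SE 0.12, adjusted p = 5.31e-04), the largest among the 38 genes in this fit. It passed under all 24 alternatives, with adjusted p between 1.19e-11 and 0.00714. A gene on the other strand covers 7.92% of its exon bases and held 0.914 ± 0.435 CPM in vehicle and 1.36 ± 0.752 CPM in DHT cultures.

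POLR3D (ENSG00000168495) encodes the partner of POLR3E in that pair. It lay between 12 and 15.8 CPM in vehicle (median 14.3) and between 16.7 and 22.5 CPM in DHT (median 21.4). The groups did not overlap, with DHT replicates 4 and 6 nearest to the vehicle libraries. The mean rose from 14.0 ± 1.47 to 20.2 ± 2.44 CPM (log2FC 0.53, SE 0.12, adjusted p = 0.0294). The call missed the threshold when vehicle replicate 3, 4 or 6 or DHT replicate 1, 2, 3 or 5 was left out, with adjusted p between 0.0520 and 0.0849, and with no filter on low counts (0.101).

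The promoter of POLR3E is shown because it is the most changed gene of the list and holds a match to 2 of the 3 sequences searched, the E-box and the B box. The third, which is not described here, matched 0 of the list's windows. Windows from 250 bases before to 50 bases after a RefSeq transcription start (GRCh38.p14) were matched for 31 of the 38 genes. The E-box CACGTG, bound by MYC and related factors, was found on either strand in 6 of the 31 (19.4%), against 8.77% of 27305 genes with such windows. All 6 were polymerase III genes, a class that holds 26 of the 38. Its share of the 31 was not counted, so this is not read as a trait of that class. The 31 genes, all of them tested for change, held 44 windows. The 27305 held 35116 windows and were not limited to genes tested here, so the 2 shares are not matched. The B box (GGTTCGA, 2 bases of any kind, then CC), an element inside transfer RNA genes that TFIIIC reads, was searched because it had been seen in POLR3E, whose match is therefore no result of the search. Of the other 30 genes it was found in 1, TAF1C, on the reverse strand, and 0.231% of the 27305 genes hold it. The E-box and B box matches do not overlap one another in the stretches below, which run 5′ to 3′ along the gene's own strand, with E-box and B box letters in capitals. In POLR3E the B box starts 209 bases and the E-box 1 base before the transcription start, and in the next 5 genes the E-box starts 35 to 196 bases before it. A match is a description of the letters and not a site of binding. Whether the B box letters before POLR3E belong to a separate transfer RNA gene was not examined.
POLR3E (chr16:22297159-22297413, plus strand): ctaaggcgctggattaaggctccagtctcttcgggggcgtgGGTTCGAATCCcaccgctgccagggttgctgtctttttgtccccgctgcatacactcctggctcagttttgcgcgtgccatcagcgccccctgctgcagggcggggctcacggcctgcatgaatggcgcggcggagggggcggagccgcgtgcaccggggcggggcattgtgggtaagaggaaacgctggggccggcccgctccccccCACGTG
POLR3A (chr10:78029528-78029567, minus strand): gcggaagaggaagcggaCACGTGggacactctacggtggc
POLR3C (chr1:145823987-145824026, plus strand): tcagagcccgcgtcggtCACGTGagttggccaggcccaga
GTF3C2 (chr2:27356845-27356884, minus strand): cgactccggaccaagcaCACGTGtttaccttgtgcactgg
GTF3C4 (chr9:132669983-132670022, plus strand): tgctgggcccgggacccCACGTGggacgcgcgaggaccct
GTF3C6 (chr6:110958547-110958586, plus strand): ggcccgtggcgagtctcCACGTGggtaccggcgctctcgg
TAF1C (chr16:84187206-84187246, minus strand): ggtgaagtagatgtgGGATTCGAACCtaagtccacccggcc
Of the 6 genes with an E-box, POLR3E passed and the other 5 did not, with log2FC values of 0.15 (POLR3A), 0.06 (POLR3C), 0.08 (GTF3C2), 0.24 (GTF3C4) and -0.12 (GTF3C6). POLR1B was searched and is not among the 6, and no window was matched for POLR3D.

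Neither catalytic subunit of polymerase III passed. POLR3A, the largest subunit, lay between 37.2 and 57.4 CPM in vehicle (median 48.0) and between 44.9 and 56.7 CPM in DHT (median 50.6). The DHT values fell inside the vehicle range (log2FC 0.15, SE 0.12, adjusted p = 0.761). Its partner in the active site, POLR3B, had a log2FC of 0.11 (SE 0.10, adjusted p = 0.810). POLR3C and POLR3F, of the trimer that opens the promoter, had log2FC values of 0.06 and -0.01, and the sign for POLR3F turned under 13 of the 24 alternatives. POLR3K, which acts in termination, was at 0.27 (SE 0.16) and CRCP, of the stalk, at 0.15 (SE 0.10).

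The last member of that trimer comes in 2 forms, POLR3G, typical of stem and tumour cells, and POLR3GL, the widespread form. POLR3G lay between 0.964 and 7.45 CPM in vehicle (median 4.85) and between 3.51 and 9.13 CPM in DHT (median 7.87), lowest in replicate 2 of each group. Its log2FC of 0.64 (SE 0.36) did not pass (adjusted p = 0.579). POLR3GL lay between 4.91 and 10.7 CPM in vehicle (median 6.83) and in the narrow range from 5.69 to 6.48 CPM in DHT (median 5.98), with a log2FC of -0.27 (SE 0.18, adjusted p = 0.678). Within each library, the log2 ratio of POLR3G to POLR3GL (with 0.5 CPM added to each) was -0.67 ± 1.05 in vehicle and 0.23 ± 0.48 in DHT (SD, n = 6 each). The groups overlapped through DHT replicate 2 (-0.71) and vehicle replicate 6 (0.52), and the difference of 0.90 did not pass an exact two-sided permutation test over 924 labelings (p = 0.0584, adjusted over 2 ratios 0.0584). The difference was 0.51 without vehicle replicate 2 (exact p = 0.119), 1.13 without vehicle replicate 6 (exact p = 0.0130) and 1.09 without DHT replicate 2 (exact p = 0.0216). With any other single library left out it ran from 0.83 to 0.99 and did not pass (exact p between 0.0584 and 0.123). MBLAC2, on the other strand, covers 6.46% of the exon bases of POLR3G and itself rose from 11.9 ± 3.44 to 20.7 ± 2.52 CPM (log2FC 0.81, adjusted p = 0.0310). How far its reads entered the POLR3G count was not tested.

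TFIIIB recruits the enzyme in one of 2 forms, with BRF1 at transfer RNA and 5S genes or with BRF2 at U6-type genes. BRF1 lay between 101 and 157 CPM in vehicle (median 110.3) and between 107 and 129 CPM in DHT (median 113). Both groups were highest in replicate 2 and the groups overlapped (log2FC -0.03, SE 0.12, adjusted p = 0.976). BRF2 lay between 6.57 and 14.5 CPM in vehicle (median 9.21) and between 10.3 and 15.6 CPM in DHT (median 11.2), with a log2FC of 0.33 (SE 0.18, adjusted p = 0.562). Neither gene passed by itself, and their ratio within a library was also compared, a test chosen with earlier results of these data known. How often ratios of other gene pairs separate the groups was not examined. The log2 ratio of BRF1 to BRF2 was 3.39 to 4.06 in vehicle libraries and 3.01 to 3.31 in DHT libraries, with no overlap. Its mean was 3.56 ± 0.249 in vehicle and 3.22 ± 0.127 in DHT, lower by a difference of -0.34 (exact two-sided permutation p = 0.00216, the smallest that 924 labelings can give; adjusted over 2 ratios 0.00433). Without vehicle replicate 5, which had the highest ratio, the difference was -0.25 (exact p = 0.00216). ADGRA2 covers 60.0% of the exon bases of BRF2 on the other strand and was at 0.161 CPM in both groups. BDP1, the third TFIIIB subunit, had a log2FC of 0.36 (SE 0.27, adjusted p = 0.749).

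**Figure D3:**
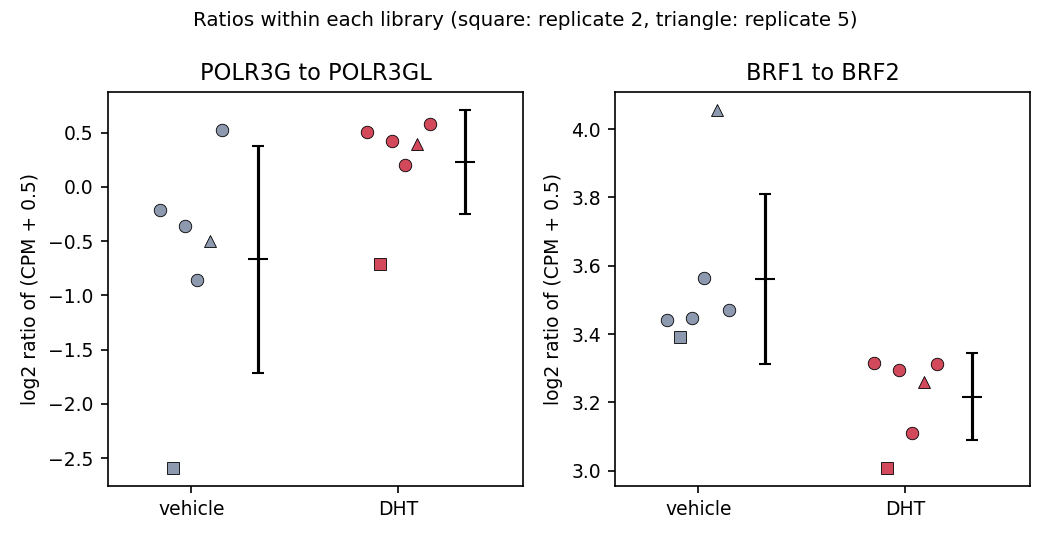
Log2 ratio of POLR3G to POLR3GL (left) and of BRF1 to BRF2 (right) within each library, as points, with the mean and SD of each group (n = 6). The BRF1 to BRF2 ratio is lower in all 6 DHT libraries than in any vehicle library, while the POLR3G to POLR3GL ratio overlaps through vehicle replicate 6 and DHT replicate 2 (square).

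GTF3A, which encodes TFIIIA, lay between 148 and 284 CPM in vehicle (median 159) and between 219 and 318 CPM in DHT (median 250.5). Vehicle replicate 5, the library with the high mitochondrial share, was the one vehicle library inside the DHT range, and the other 5 lay at or below 179 CPM. With all libraries the log2FC of 0.51 (SE 0.17) did not pass (adjusted p = 0.171). Without vehicle replicate 5 it was 0.68 and passed (adjusted p = 0.00564), as it did with GC and length offsets (0.0185) and with library totals alone (0.0397). MTIF3, on the other strand, covers 6.19% of its exon bases.

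The 6 subunits of TFIIIC had a median log2FC of -0.08, between -0.17 for GTF3C5 and 0.24 for GTF3C4, the subunit with acetyltransferase activity. None of the 6 passed in edgeR, and 0 had an unadjusted p under 0.05 or were called by DESeq2 or limma-voom. GTF3C1, the largest subunit, which contacts the B box, held 203 ± 32.5 CPM in vehicle and 186 ± 15.5 CPM in DHT cultures (log2FC -0.13, SE 0.12). A pseudogene copy of GTF3C6, GTF3C6P2, held 2258 counts over all libraries, so reads of GTF3C6 may have been divided. The 5 SNAPc genes, SNAPC1 to SNAPC5, had a median log2FC of 0.05 and a range from 0.01 to 0.32, the highest being SNAPC4, the subunit that binds DNA. None of these 5 passed in edgeR, with 0 at an unadjusted p under 0.05 and 0 by DESeq2 or limma-voom.

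MAF1, the repressor, lay between 134 and 387 CPM in vehicle (median 144) and between 131 and 338 CPM in DHT (median 149). Replicate 2 was far above the rest in both groups, and the next highest library was vehicle replicate 5, at 186 CPM. The log2FC was -0.08 (SE 0.30, adjusted p = 0.966). It turned to 0.25 without vehicle replicate 2 (adjusted p = 0.672) and stayed near 0, at -0.02, without both replicate 2 libraries (adjusted p = 0.921).

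Set against each other, the 10 polymerase I genes had a median log2FC of 0.27 and the 26 polymerase III genes one of 0.10, beside -0.05 over all genes tested. Of the polymerase I genes 1 was raised and 8 lay above 0, and of the polymerase III genes 2 were raised and 18 lay above 0. The difference between the medians was not tested, since the genes were listed with results of these data known. Without vehicle replicate 2 the medians were 0.17 and 0.14. By role, the median was 0.37 over the 3 listed polymerase I subunits and 0.11 over the 7 listed factors of that enzyme. It was 0.15 over the 10 listed polymerase III subunits, 0.33 over the 3 TFIIIB genes, -0.08 over TFIIIC and 0.05 over SNAPc.

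**Figure D4:**
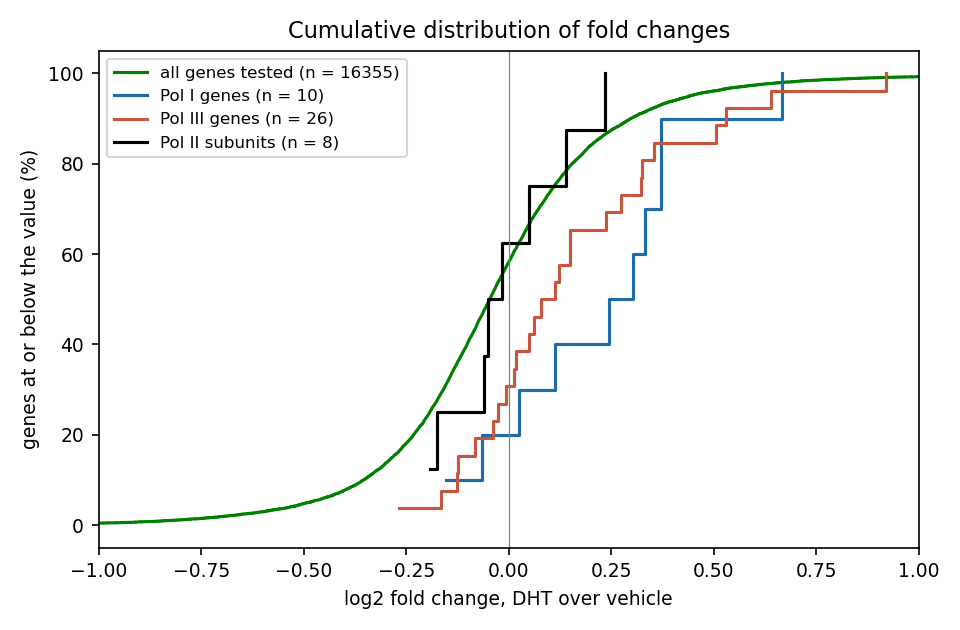
Cumulative share of genes (vertical axis, percent) at or below each log2FC of DHT over vehicle (horizontal axis) for the 10 polymerase I genes, the 26 polymerase III genes, the 8 subunits of polymerase II alone and all 16355 genes tested. The polymerase I and III steps lie mostly to the right of the curve of all genes, and those of polymerase II cross it.

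Levels can be compared between genes only per length of exon. The length used was that annotated for the whole gene and not that of the transcripts expressed, so the order also depends on annotation. In vehicle libraries POLR3G had the lowest level per kb of exon, 1.20 ± 0.599 CPM per kb, followed by POLR3D (2.51 ± 0.263), and MAF1 (78.5 ± 40.8), GTF3C6 (69.5 ± 23.1) and GTF3A (61.5 ± 17.8) had the highest, which overlapped one another within 1 SD. RRN3 came next (25.8 ± 3.07). In vehicle POLR1B, POLR1A and POLR3A stood close together, at 5.77 ± 0.628, 6.21 ± 0.795 and 5.22 ± 0.827 CPM per kb. In DHT POLR1B reached 9.15 ± 0.498 and POLR3E 15.3 ± 1.65 CPM per kb, from 8.07 ± 1.08 in vehicle.

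**Figure D5:**
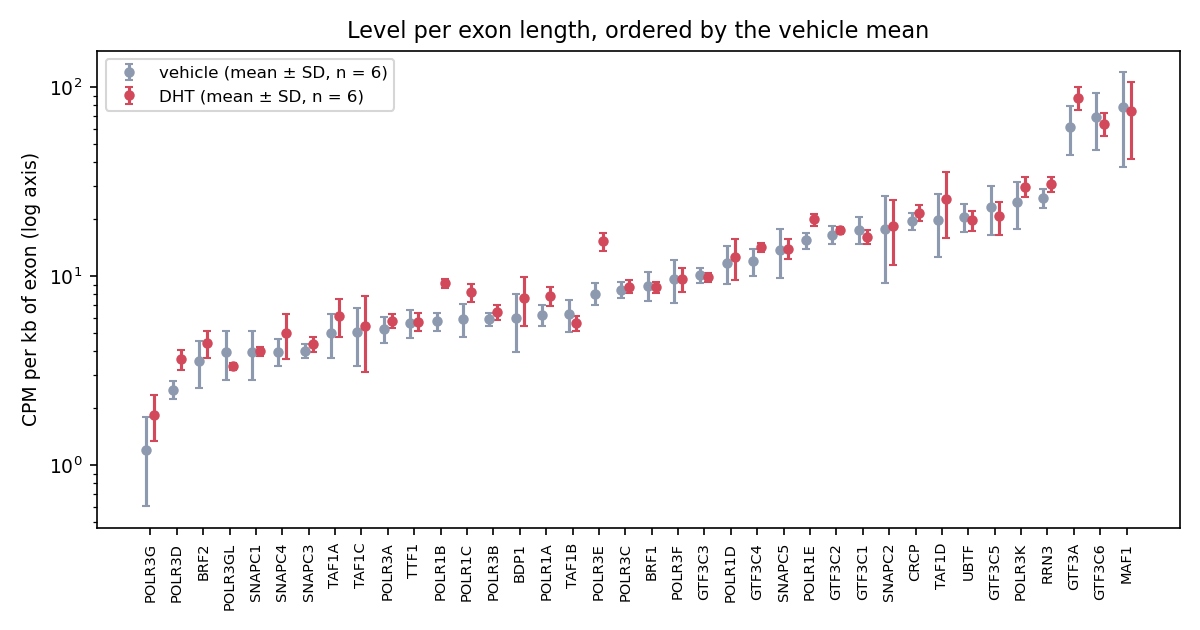
CPM per kb of exon (log axis) for the 38 genes, ordered by the vehicle mean, with points for the mean and bars for the SD of 6 libraries per group. POLR3G is lowest and MAF1 highest in vehicle. POLR1B, POLR3D and POLR3E show the DHT point clear of the vehicle bar, as do several genes that did not pass, POLR1E among them.

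Other parts of the same systems were read from lists beside the 38. The polymerase I subunits POLR1F, POLR1G and POLR1H, not among the 38, gave no call in edgeR, with 1 at an unadjusted p under 0.05. That was POLR1G, with a log2FC of 0.54 (SE 0.16, adjusted p = 0.110), and limma-voom called 0 of the 3 and DESeq2 called 1. The 5 subunits common to polymerases I, II and III had a median log2FC of -0.06, and the 8 listed subunits of polymerase II alone had one of -0.03. Neither list held a gene that passed in edgeR, DESeq2 or limma-voom. At an unadjusted p under 0.05 the first held 0 and the second 1, POLR2B, the second-largest subunit and the counterpart of POLR1B, with a log2FC of 0.23 (adjusted p = 0.387).

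Of 14 regulators and partners 13 were tested, and 3 were raised and none lowered, where 1.96% of all genes were raised and 0.88% lowered. This list was chosen with earlier results of these data known. MYC rose from 38.4 ± 10.7 to 138 ± 24.3 CPM (log2FC 1.85, SE 0.19, adjusted p = 8.42e-05), with all DHT libraries above all vehicle libraries. NOLC1, a nucleolar phosphoprotein that binds polymerase I, rose with a log2FC of 0.83 (SE 0.11, adjusted p = 8.19e-04). TCOF1, its nucleolar partner that acts with UBTF, had a log2FC of 0.38 (SE 0.09, adjusted p = 0.0374), and lost its call when any 1 of 9 libraries was left out (vehicle replicate 1, 3, 4 or 6, or DHT replicate 1, 3, 4, 5 or 6; adjusted p between 0.0540 and 0.116). TCOF1 also missed the threshold with upper-quartile scaling (0.0548), library totals alone (0.110) and no low-count filter (0.207), so it passed under 12 of 24 alternatives. The other 10 did not pass, among them TBP, the TATA-binding protein used by all 3 polymerases (log2FC 0.03, adjusted p = 0.982). RB1, which restrains both polymerase I and polymerase III, was at 0.04 (adjusted p = 0.967).

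The products of polymerase III were hardly measured. Of 20 such transcripts listed, 19 had a row in the table and 15 held 0 counts after rounding in all libraries; such a 0 in this table says nothing of their amounts in the cells. Only RN7SL1 and BCYRN1 could be tested. RN7SL1, the RNA of the signal recognition particle, held 447 ± 117 CPM in vehicle and 434 ± 136 CPM in DHT cultures (log2FC -0.04, adjusted p = 0.980), and BCYRN1 had a log2FC of -0.60 (SE 0.46, adjusted p = 0.756). Whether transcription by either polymerase changed was therefore not tested.

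The authors' deposited table names no model. In the authors' deposited table POLR3E had a log2FC of 0.91 (adjusted p = 5.42e-05) and POLR1B one of 0.61 (0.00242). GTF3A passed in the authors' deposited table (0.57, adjusted p = 0.00936) and not in the fit above. POLR3D did the reverse, at 0.50 with an adjusted p of 0.0843 in the authors' deposited table. So did TCOF1, at 0.38 with an adjusted p of 0.252 in the authors' deposited table. POLR1E passed in neither, at 0.31 with an adjusted p of 0.727 in the authors' deposited table.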

How the data were processed

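RNA (1 µg) from 12 cultures of MDA-MB-453 cells was made into libraries and sequenced as 40 bp single-end reads. The authors deposited estimated counts per gene. The submitters' processing notes name STAR, featureCounts and GRCh38, with versions and options not given in the sources used here. Between 39.6% and 46.7% of a library's nonzero values were not whole (tolerance 0.005), so they were rounded before testing, although raw counts had been planned for. A record broken over 3 lines was left out. The labels call the assay both poly-A and total RNA sequencing, so the RNA class is not settled. A second table, deposited by the authors, holds the log2 fold changes of their comparison with p-values, GC percent and transcript lengths, per the file headers. Its GC and length columns covered all 38 genes and 89.0% of the genes tested and gave the offsets. A ranking score, deposited by the authors in that table, was not used.

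The main test was edgeR 4.0.16's quasi-likelihood F-test (R 4.3.3) after filterByExpr and TMM scaling, with no covariate beside treatment, Benjamini-Hochberg adjustment and a threshold of 0.05. CPM are counts over TMM-scaled totals, and counting error limits the shallow libraries most. Standard errors were obtained as log2FC divided by the square root of F. Ratios within a library were tested by exact two-sided permutation with a pseudocount of 0.5 CPM. Coordinates and exon lengths are those of the count table, and promoter sequences are RefSeq's (GRCh38.p14). The scripts were tested on simulated data. Alternatives were other scalings and filters, unrounded counts, DESeq2 1.42.0, limma-voom (limma 3.58.1), offsets for GC and length (natural splines, 5 degrees of freedom), the replicate number as a block and libraries left out.

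The 38 genes, the lists and the tests were chosen with earlier results of these data known. All 38 genes are accounted for. Some other genes of the lists, and 1 motif search, are not reported here, and the list counts and sums leave those genes out. Those past the threshold and POLR1A, POLR1B, RRN3, UBTF, POLR3A, POLR3G, POLR3GL, BRF1, BRF2 and MAF1 were to be given in full whatever they showed, and POLR1E, POLR1C, GTF3A and TAF1D were given more room after their values were seen.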

Additional observations from a re-analysis of the deposited data

Results flagged for a closer look

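Each gene and each ratio was examined for a library that stood apart from the other 5 of its group, taken as a gap to the nearest library of over 0.625 of the group's range. Of 80 such tests 20 met it. The tests share the same 12 libraries, and the share over all genes is not given here, so the count is not read as a trait of these genes. Both replicate 2 libraries and vehicle replicate 5 also stood apart on the principal components described above. In 15 of the 20 the library was a replicate 2 library (6 vehicle, 9 DHT), and in 4 it was vehicle replicate 5.

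Replicate 2 was highest in both groups for UBTF (191 CPM in vehicle, 170.4 in DHT), GTF3C5 (131 and 102 CPM), MAF1 (387 and 338 CPM) and SNAPC2 (67.6 and 63.7 CPM). It was lowest in both groups for TAF1D (46.2 and 54.0 CPM). Vehicle replicate 2 was also highest for BRF1 (157 CPM), and DHT replicate 2 was highest for CRCP (91.0 CPM) and lowest for POLR3G (3.51 CPM), BDP1 (42.2 CPM) and the POLR3G to POLR3GL log2 ratio (-0.71).

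Vehicle replicate 5 was highest for GTF3A (284 CPM), GTF3C6 (106 CPM) and the BRF1 to BRF2 log2 ratio (4.06), and lowest for GTF3C2 (76.4 CPM). DHT replicate 6 was highest for SNAPC3 (34.4 CPM). None of the raised genes POLR1B, POLR3D and POLR3E had such a library in either group.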

How the results depend on the processing

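POLR1B and POLR3E were raised and 0 of the 38 genes were lowered under all 24 alternatives. Genes changed in all numbered 464, and 793 with DESeq2, 824 with offsets for GC and length, 920 without both replicate 2 libraries (457 shared with the 464) and 278 to 619 when 1 library was left out. Of the 38, raised genes numbered 5 with library totals alone (1.62% of all genes raised), 5 with DESeq2 (3.12%) and 2 to 6 with 1 library out (1.15% to 2.62%). Raised polymerase I genes numbered 2 with library totals alone, with DESeq2 and without both replicate 2 libraries, and 1 to 2 with 1 library out. Raised polymerase III genes numbered 1 with no low-count filter and 1 to 3 with 1 library out. With 1 library out the median of the polymerase I genes ran from 0.17 to 0.32 and the POLR3G to POLR3GL difference from 0.51 to 1.13, and without both replicate 2 libraries that difference was 0.70 (exact p = 0.0397). Library totals alone moved the median of all genes from -0.05 to 0.01.

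Same-numbered libraries did not pair in every case (correlations of deviations 0.563, 0.890, 0.498, 0.284, -0.273 and 0.553 for numbers 1 to 6), and not every library correlated best with its own number. With the replicate number as a block 1286 genes changed and 7 of the 38 were raised, 3 of them polymerase I genes, where 4.67% of all genes were raised. The 4 that joined were POLR1C (adjusted p = 0.0104), TAF1D (0.0196, higher in DHT in 6 of 6 numbers), POLR1E (0.0206) and POLR3G (0.0431). The block also lowered 5 of the 6 line markers and all 3 fibroblast markers tested, where 3.19% of all genes were lowered. With the block and GC and length offsets the counts were 2285, 13 and 5, with 7 polymerase III genes, where 8.43% of all genes were raised. Sign flips within numbers, a pairing by number, gave exact p = 0.0312 for the POLR3G to POLR3GL difference of 0.90, the smallest that 64 flips can give.

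Signs turned only for genes of the 38 that passed under none of these alternatives. SNAPC1 was at -0.0014 with upper-quartile scaling and -0.022 with GC and length offsets. POLR3F was at 0.042 with library totals, 0.031 with limma-voom, 0.012 with no filter, 0.027 with the block, 0.010 with GC and length offsets and 0.025 with both. BRF1 was at 0.045 and GTF3C3 at 0.0074 with library totals. Leaving out both replicate 2 libraries gave SNAPC1 -0.073, BRF1 0.044, TTF1 -0.0059 and SNAPC5 -0.020. With 1 library out the ranges were -0.13 to 0.072 for POLR3F, -0.19 to 0.34 for SNAPC2, -0.081 to 0.17 for SNAPC5, -0.14 to 0.030 for UBTF, -0.053 to 0.30 for TAF1C, -0.066 to 0.080 for TTF1, -0.064 to 0.076 for BRF1, -0.28 to 0.0080 for GTF3C5, -0.37 to 0.25 for MAF1, -0.099 to 0.15 for SNAPC1, -0.19 to 0.083 for GTF3C6 and -0.045 to 0.19 for POLR1D. The cause of these changes was not tested.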
